A study of Homo sapiens with 17 samples.

Results

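The genes described here are co-activators, DNA-binding partners, inhibitory kinases, scaffold regulators and targets of the YAP/TAZ pathway. They were followed over 24 h in a breast cancer cell line given the death ligand TRAIL. The members were taken by symbol from the gene table and are YAP1, WWTR1 (the gene of TAZ), TEAD1, TEAD4, LATS1, LATS2, AMOTL1, AMOTL2, AJUBA and ANKRD1, which are 10 of 58870 entries. All 10 passed the filter on low counts, and 15365 genes were tested in all. The genes CCN1 and CCN2 of secreted proteins, textbook targets of the same pathway with the older symbols CYR61 and CTGF, were followed beside them.

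Polyadenylated RNA was measured by stranded paired-end sequencing in MDA-MB-231, an established line from a triple-negative breast cancer that the labels class as mesenchymal and basal B. All cells grew in RPMI medium with 10% serum, and TRAIL was given at 45 nM, a dose the labels describe as below the optimum. RNA was taken at 0, 1, 3, 6, 12 and 24 h, giving 17 libraries, 2 from 1 h and 3 from each other time. Every library, the 0 h libraries included, is labelled as TRAIL treated, and no group without TRAIL at a later time was analysed here, so time with TRAIL and time in culture cannot be told apart. A single line was used, and the labels do not say whether replicates came from separate cultures, so p-values measure only the spread between these libraries.

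In the Hippo pathway, the kinases LATS1 and LATS2 phosphorylate YAP and TAZ, which keeps them in the cytoplasm and marks them for degradation. When the kinases are inactive, YAP and TAZ enter the nucleus and bind TEAD proteins on DNA, and genes such as ANKRD1, CCN1 and CCN2 are transcribed. Proteins of the angiomotin family hold YAP and TAZ outside the nucleus, and AJUBA, a LIM-domain scaffold, restrains the LATS kinases. The activity of YAP and TAZ is set largely by phosphorylation and location, which RNA levels do not measure. TRAIL, a TNF-family cytokine, binds death receptors on the cell surface and can trigger apoptosis.

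Libraries held 13731520 to 19234924 counts, and the common biological coefficient of variation was 7.06%. Of the markers of the labelled cell type, VIM (2611 to 3610 CPM, the count relative to the scaled library size, as means by time) and CD44 (1271 to 1535 CPM) were high, while the luminal markers ESR1, PGR and FOXA1 stayed at or below 0.0766 CPM and CDH1 at or below 0.609 CPM. Other luminal markers were present, EPCAM at 13.7 to 17.8 CPM and GATA3 at 8.61 to 11.7 CPM. KRT8 (834 to 1074 CPM), a keratin of luminal cells, and CD68 (60.5 to 95.6 CPM), a leukocyte marker, were also present. PTPRC stayed at or below 0.151 CPM and CD3E had 0 counts. Summed over their lists, single libraries ran from 5512 to 7405 CPM for the 6 mesenchymal markers, from 831 to 1171 CPM for the 7 luminal markers and from 58.9 to 102.5 CPM for the 5 leukocyte and endothelial markers. Library properties changed with time. Mitochondrial genes held a mean of 6.75% of the counts at 0 h and 8.59% at 3 h, but 4.49% at 6 h and 3.90% at 24 h. Long transcripts also took a changing share. The slope of a library's log2 CPM on log2 transcript length was measured against the average library. It had a mean of -0.036 in the 0 h libraries, -0.067 in those of 1 h and -0.096 in those of 3 h. Later the mean was 0.066 in the 6 h libraries, 0.017 in those of 12 h and 0.093 in those of 24 h. Replicates 2 and 3 were closer to each other at 6 h (chi-square of 1.57 per gene) and at 24 h (1.67) than any other replicate pair (3.68 to 13.5), though still further apart than sampling noise, and they were kept as separate libraries.

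At 0 h the members covered a wide range of levels. Per kilobase of the longest annotated transcript, ANKRD1 had the highest level, 161 ± 8.91 CPM per kb (SD, n = 3). AJUBA followed at 34.5 ± 1.13, AMOTL2 at 27.1 ± 0.958 and YAP1 at 24.4 ± 2.83 CPM per kb. TEAD1 stood at 17.7 ± 0.364, WWTR1 at 12.3 ± 0.780, TEAD4 at 10.2 ± 1.07 and AMOTL1 at 9.99 ± 0.894 CPM per kb. The LATS kinases were lowest, LATS2 at 6.70 ± 0.0890 and LATS1 at 2.45 ± 0.167 CPM per kb. In this order AMOTL2 and YAP1, and likewise TEAD4 and AMOTL1, lay within 1 SD of each other. CCN1 was above every member, at 589 ± 41.1 CPM per kb, and CCN2, at 133 ± 4.12, came next below ANKRD1.

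**Figure D1:**
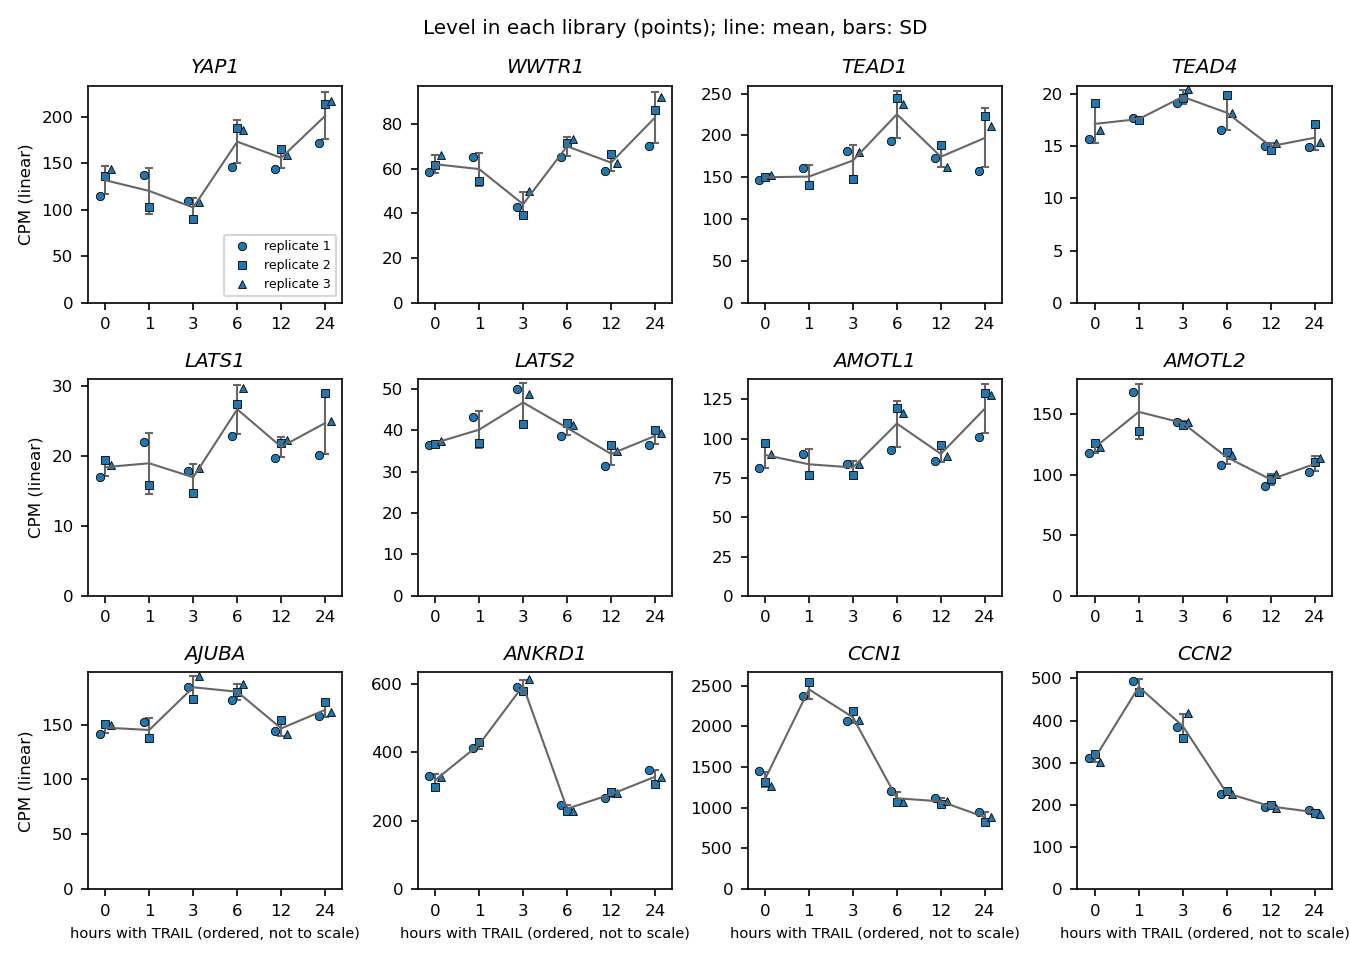
Level of each of the 10 members, CCN1 and CCN2 in every library, in CPM on a linear axis from 0, against hours with TRAIL in order (not to scale). Points are libraries, with a symbol for each replicate number, lines join the means and bars are SD. ANKRD1 peaked at 3 h (578 to 614 CPM), and YAP1 and WWTR1 were lowest at 3 h (90.2 to 109 and 39.4 to 50.1 CPM).

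The co-activator genes YAP1 and WWTR1 had like time courses, with their lowest means at 3 h, a rise from 3 h to 6 h and their highest means at 24 h. Their means ranked the times as 3, 1, 0, 12, 6 and 24 h from lowest to highest, as did the mean library slopes on transcript length. Changes with that trend removed are given further below. YAP1 (ENSG00000137693, chromosome 11, 102110461 to 102233423 on GRCh38, plus strand) stood at 115, 136 and 145 CPM in the 0 h libraries, at 138 and 103 CPM in those of 1 h and at 109, 90.2 and 108 CPM in those of 3 h. The 6 h libraries then held 147, 188 and 186 CPM, the 12 h libraries 144, 165 and 159 CPM and the 24 h libraries 172, 214 and 218 CPM. All 3 h libraries were below every 0 h library, and all 6 h and 24 h libraries were above them. WWTR1 (ENSG00000018408, chromosome 3, 149517235 to 149736714, minus strand) stood at 58.4, 61.5 and 66.2 CPM in the 0 h libraries, at 65.1 and 54.6 CPM in those of 1 h and at 42.7, 39.4 and 50.1 CPM in those of 3 h. Later it held 65.2, 71.4 and 73.5 CPM in the 6 h libraries, 59.0, 66.7 and 62.4 CPM in those of 12 h and 70.3, 86.3 and 92.2 CPM in those of 24 h. Its 3 h libraries lay below all others, and those at 24 h above every 0 h library. For YAP1 the 3 h libraries overlapped with those of 1 h. WWTR1 counts were not whole numbers in 16 of 17 libraries, and the reason was not tested.

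Between 0 h and 3 h WWTR1 fell by 0.49 on the log2 scale (0.712-fold, SE 0.104, adjusted p 0.00337, edgeR quasi-likelihood test with Benjamini-Hochberg adjustment, as for all adjusted p-values here unless another tool is named). For YAP1 the log2 difference at 3 h was -0.36 (SE 0.133, adjusted p 0.0727), short of the threshold of 0.05. YAP1 passed it in 7 of 20 alternatives, and in 1 of the 6 that left out a library, the 0 h replicate 1 (0.0356). It also passed in DESeq2 (adjusted p 0.0259), with upper-quartile scaling (0.0473), with no filter (5.76e-06) and with only the times compared (0.0128). Correction for length and GC content gave 0.0461, and 0.0448 with the replicate number as a block. Over all alternatives its adjusted p ran from 5.76e-06 to 0.257. From 3 h to 6 h both genes rose, YAP1 by 0.76 (1.69-fold, SE 0.133, adjusted p 0.000445) and WWTR1 by 0.67 (1.59-fold, SE 0.103, adjusted p 0.000114), and both calls were made under every alternative. At 24 h both were above 0 h, YAP1 by 0.61 (1.53-fold, SE 0.131, adjusted p 0.00265) and WWTR1 by 0.42 (1.34-fold, SE 0.0991, adjusted p 0.00362), again under every alternative. The YAP1 rise at 6 h against 0 h (0.40, adjusted p 0.033) was less stable, with adjusted p from 7.34e-07 to 0.138. It was lost without the 0 h replicate 1 (0.137) or replicate 2 (0.0564), or without the 6 h replicate 2 (0.12) or replicate 3 (0.119). WWTR1 was also lower at 3 h than at 1 h (-0.44, adjusted p 0.0279, from 4.82e-05 to 0.386 over the alternatives) and higher at 24 h than at 12 h (0.40, adjusted p 0.0149, from 2.28e-05 to 0.0954). The first of these calls was lost on leaving out the 1 h replicate 1 (-0.31, adjusted p 0.386), or either of the 3 h replicates 1 (0.0973) and 2 (0.111), and the second without the 12 h replicate 1 (0.072) or the 24 h replicate 2 (0.0729) or replicate 3 (0.0902). At 1 h neither gene differed from 0 h beyond the spread between libraries (YAP1 -0.13, WWTR1 -0.05, adjusted p 0.987 for each).

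Of the DNA-binding partners, TEAD1 rose at 6 h, while TEAD4 passed no test against 0 h. TEAD1 (ENSG00000187079, chromosome 11, 12674591 to 12944483, plus strand) stood at 147, 151 and 153 CPM at 0 h and at 193, 245 and 237 CPM at 6 h. Its 24 h libraries, at 157, 223 and 211 CPM, were all above those at 0 h, with replicate 1 near them. At 1 h it held 161 and 141 CPM, at 3 h 181, 148 and 181 CPM, and at 12 h 173, 188 and 163 CPM. TEAD1 rose by 0.59 at 6 h (SE 0.119, adjusted p 0.00211) under every alternative. The rise at 24 h (0.39, SE 0.12, adjusted p 0.0185) was lost with correction for length and GC content (0.16, adjusted p 0.0614), and on leaving out the 0 h replicate 1 (0.0668) or the 24 h replicate 2 (0.0961) or 3 (0.0742), its adjusted p running from 4.56e-07 to 0.0961. From 3 h to 6 h TEAD1 rose by 0.41 (adjusted p 0.012, 1.55e-08 to 0.0685 over the alternatives), a call lost on leaving out replicate 2 of 3 h (0.31, adjusted p 0.0685) or of 6 h (0.34, 0.055). It fell by 0.37 from 6 h to 12 h (adjusted p 0.0382, from 6.87e-06 to 0.144), a call that was lost without the 6 h replicate 2 (0.144) or replicate 3 (0.132) or the 12 h replicate 1 (0.0945) or replicate 3 (0.125).

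TEAD4 (ENSG00000197905, chromosome 12, 2959330 to 3040673, plus strand) kept within 14.6 to 20.5 CPM in all 17 libraries. Its mean was 17.2 ± 1.82 CPM at 0 h, highest at 3 h with 19.8 ± 0.694 CPM and lowest at 12 h with 15.0 ± 0.343 CPM (SD, n = 3 each). Against 0 h its log2 differences lay between -0.19 and 0.20, none past the threshold. The fall from 6 h to 12 h (-0.28, SE 0.0899, adjusted p 0.033) was made in 9 of 20 alternatives, with adjusted p from 0.00921 to 0.167. It was lost when any 1 of the 6 libraries compared was left out except the 6 h replicate 1. With correction for length and GC content the log2 difference at 6 h against 0 h was 0.27 in place of 0.09, and past the threshold (adjusted p 0.0476).

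Of the inhibitory kinases, LATS1 followed YAP1, and LATS2 peaked at 3 h. LATS1 (ENSG00000131023, chromosome 6, 149658153 to 149718256, minus strand) stood at 17.05, 19.5 and 18.7 CPM in the 0 h libraries, at 17.9, 14.8 and 18.3 CPM in those of 3 h and at 22.9, 27.5 and 29.8 CPM in those of 6 h. It was 20.1, 29.1 and 25.0 CPM at 24 h, above every 0 h library, though replicate 1 was near them. The 1 h libraries, at 22.1 and 15.9 CPM, lay on both sides of 0 h, and those of 12 h, at 19.7, 21.9 and 22.4 CPM, lay above it (log2 difference 0.21, adjusted p 0.334). LATS1 rose by 0.54 at 6 h against 0 h (1.45-fold, SE 0.136, adjusted p 0.00703) and by 0.65 against 3 h (1.57-fold, SE 0.14, adjusted p 0.00119), under every alternative. Its rise at 24 h (0.42, adjusted p 0.0231, from 0.000259 to 0.142) was lost with the length and GC correction (0.21, adjusted p 0.0937), and on leaving out the 0 h replicate 1 (0.0965) or the 24 h replicate 2 (0.142) or 3 (0.0619). LATS1 had 190 to 552 counts per library, fewer than most members, and counts that were not whole in 7 libraries.

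LATS2 (ENSG00000150457, chromosome 13, 20973032 to 21061547, minus strand) was within 36.5 to 37.5 CPM at 0 h and stood at 49.8, 41.4 and 48.8 CPM at 3 h. Every 3 h library was above every 0 h library. It held 43.3 and 36.9 CPM at 1 h and 38.7, 41.7 and 41.3 CPM at 6 h, with 31.3, 36.5 and 35.0 CPM at 12 h and 36.5, 40.1 and 39.2 CPM at 24 h. The rise at 3 h was 0.34 on the log2 scale (1.27-fold, SE 0.0819, adjusted p 0.00769) and was called under every alternative. LATS2 was lower at 6 h than at 3 h (-0.20, adjusted p 0.049) and at 12 h than at 6 h (-0.24, adjusted p 0.0423), but these falls were called in 9 and 11 of 20 alternatives, with adjusted p from 0.00112 to 0.243 and from 0.034 to 0.163. For the first, of the 6 libraries compared, only the 3 h replicate 2 could be left out without losing it. The second was lost without the 6 h replicate 2 (0.129) or replicate 3 (0.13) or the 12 h replicate 1 (0.163) or replicate 3 (0.0765).

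The scaffold regulators went 3 ways. AMOTL1 and AMOTL2 encode angiomotin-like junction proteins that bind YAP and TAZ, and AMOTL2 is itself known as a target of YAP. AMOTL1 (ENSG00000166025, chromosome 11, 94706431 to 94876753, plus strand) stood at 81.2, 97.2 and 90.4 CPM in the 0 h libraries, at 84.0, 77.1 and 83.7 CPM in those of 3 h and at 101, 129 and 127 CPM in those of 24 h. All 24 h libraries were above those at 0 h, while the 0 h and 3 h libraries overlapped. The 6 h libraries held 92.7, 119.7 and 116 CPM, with replicate 1 inside the 0 h range, and those of 1 h (90.5 and 76.8 CPM) and 12 h (85.6, 96.0 and 89.1 CPM) overlapped with 0 h. AMOTL1 rose from 3 h to 6 h by 0.42 (1.34-fold, SE 0.105, adjusted p 0.00361) and from 0 h to 24 h by 0.41 (1.33-fold, SE 0.104, adjusted p 0.00592), under every alternative. Its rise at 6 h against 0 h (0.29, adjusted p 0.0429) was called in 10 of 20 alternatives, with adjusted p from 0.00101 to 0.194, and was 0.15 (adjusted p 0.0842) with the length and GC correction. It was lost without the 0 h replicate 1 (0.176) or replicate 3 (0.0793) or the 6 h replicate 2 (0.177) or replicate 3 (0.155). Its rise from 12 h to 24 h (0.40, adjusted p 0.0203, from 7.13e-06 to 0.11) was lost without the 12 h replicate 1 (0.0873) or replicate 3 (0.0567) or the 24 h replicate 2 (0.105) or replicate 3 (0.0953).

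AMOTL2 (ENSG00000114019, chromosome 3, 134355874 to 134375479, minus strand) had an early high and a low at 12 h. It stood at 118, 126 and 123 CPM in the 0 h libraries, at 168 and 136 CPM in those of 1 h and at 143, 141 and 144 CPM in those of 3 h. Later it held 108, 118 and 116 CPM in the 6 h libraries, 90.8, 96.5 and 100.4 CPM in those of 12 h and 102, 111 and 114 CPM in those of 24 h. The libraries of 1 h and 3 h were above all at 0 h, and those of 12 h and 24 h below them. The difference at 24 h (-0.17, adjusted p 0.0633) was short of the threshold, and 5 of 20 alternatives called it. The fall at 12 h against 0 h (-0.35, 0.784-fold, SE 0.0701, adjusted p 0.00305) and that from 3 h to 6 h (-0.32, 0.802-fold, SE 0.0699, adjusted p 0.00125) were called under every alternative. The rise at 3 h (0.22, adjusted p 0.0344, from 0.00345 to 0.183) was lost when any 1 of the 6 libraries was left out. At 1 h the difference was 0.31 (SE 0.077, adjusted p 0.153), and it passed the threshold with the length and GC correction (0.33, adjusted p 0.0232), with no filter (0.0213) and without the 1 h replicate 2 (0.45, 0.0159), with a range from 0.0103 to 0.657. From 6 h to 12 h AMOTL2 fell by 0.25 (adjusted p 0.0154, from 0.00736 to 0.0797), a call lost on leaving out the 6 h replicate 2 (0.0702) or 3 (0.062) or the 12 h replicate 1 (0.0662).

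AJUBA (ENSG00000129474, chromosome 14, 22971174 to 22982642, minus strand) was raised at 3 h and 6 h and overlapped with 0 h at 12 h. It held 142, 150.1 and 149.9 CPM in the 0 h libraries and 185, 173 and 194 CPM in those of 3 h. The 6 h libraries held 173, 179.8 and 187 CPM and those of 12 h 144, 154 and 142 CPM. The 1 h libraries, at 153 and 137 CPM, also overlapped with 0 h, and the 24 h libraries, at 158, 171 and 162 CPM, lay above it (log2 difference 0.15, adjusted p 0.057). The 3 h and 6 h libraries were all above those at 0 h, and the 12 h libraries overlapped with them. AJUBA rose by 0.32 at 3 h (1.25-fold, SE 0.0604, adjusted p 0.00122) and by 0.29 at 6 h (1.22-fold, SE 0.0602, adjusted p 0.00159), and fell by 0.30 from 6 h to 12 h (0.814-fold, SE 0.0601, adjusted p 0.00176), under every alternative. The rise between 1 h and 3 h (0.34, adjusted p 0.00425, from 4.02e-05 to 0.0838) depended on the 1 h replicate 2, without which it was 0.27 (adjusted p 0.0838). AJUBA shares 50 exon bases with AL132780.3 on the same strand, an entry with 3.53% as many counts, so a small part of its counts could be misassigned. The AJUBA counts were whole in every library. AMOTL2 shares 187 exon bases with RPL39P5 on the same strand, an entry with 0.0281% as many counts, and its counts were not whole in 7 libraries. Antisense entries overlapping YAP1, WWTR1, LATS1 and AMOTL1 held at most 0.248% of the member's counts.

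ANKRD1, which encodes an ankyrin-repeat protein and is among the most used readouts of YAP and TAZ, had the largest changes of all 10 members. ANKRD1 (ENSG00000148677, chromosome 10, 90912096 to 90921276, minus strand) stood at 329, 298 and 328 CPM in the 0 h libraries, at 414 and 432 CPM in those of 1 h and at 592, 578 and 614 CPM in those of 3 h. It then held 247, 229 and 229 CPM in the 6 h libraries, 267, 283 and 281 CPM in those of 12 h and 349, 308 and 329 CPM in those of 24 h. The values thus climbed through 1 h to a peak at 3 h with no overlap between neighbouring times, dropped below every 0 h library at 6 h and 12 h, and overlapped with 0 h again at 24 h. ANKRD1 had 3454 to 8566 whole counts in each library.

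Against 0 h, ANKRD1 rose by 0.41 at 1 h (1.33-fold, SE 0.065, adjusted p 0.0027) and by 0.90 at 3 h (1.87-fold, SE 0.0589, adjusted p 2.45e-09), and fell by 0.44 at 6 h (0.738-fold, SE 0.059, adjusted p 3.48e-05). The change from 3 h to 6 h was -1.34 (0.395-fold, SE 0.0596, adjusted p 2.16e-11). The changes at 3 h, at 6 h, from 1 h to 3 h (0.49, adjusted p 0.00011) and from 3 h to 6 h were called under every alternative. The rise at 1 h was not called when the 1 h replicate 2 was left out (0.37, adjusted p 0.101), which leaves a single 1 h library assumed to vary like the others. Its adjusted p ran from 2.42e-07 to 0.101. The fall at 12 h (-0.20, adjusted p 0.0312, from 0.00031 to 0.104) was lost when any library but the 0 h replicate 2 was left out. From 6 h to 12 h ANKRD1 rose by 0.24 (adjusted p 0.0078, from 0.000414 to 0.0565), though not with the length and GC correction (0.11, adjusted p 0.0507), and from 12 h to 24 h by 0.25 (adjusted p 0.012, from 1.32e-05 to 0.065), though not without the 12 h replicate 1 (0.22, adjusted p 0.065). At 24 h its difference from 0 h was 0.04 (adjusted p 0.579).

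The targets CCN1 and CCN2, which encode secreted matrix-associated proteins, had their highest means at 1 h and were below 0 h from 6 h on. CCN1 stood at 1455, 1321 and 1273 CPM in the 0 h libraries, at 2372 and 2542 CPM in those of 1 h, at 2073, 2188 and 2076 CPM in those of 3 h and at 944, 825 and 881 CPM in those of 24 h. CCN2 stood at 310.4, 320.4 and 301 CPM in the 0 h libraries, at 493 and 467 CPM in those of 1 h, at 385, 359 and 417 CPM in those of 3 h and at 189, 181 and 178 CPM in those of 24 h. For both genes the 1 h and 3 h libraries were above all at 0 h, and those of 6, 12 and 24 h below them. At 1 h CCN1 rose by 0.86 (1.82-fold, SE 0.075, adjusted p 1.57e-06) and CCN2 by 0.63 (1.55-fold, SE 0.0611, adjusted p 4.82e-06). At 24 h CCN1 was lower than at 0 h by 0.61 on the log2 scale (0.654-fold, adjusted p 4.35e-06) and CCN2 by 0.77 (0.588-fold, adjusted p 1.57e-08), where ANKRD1 overlapped with 0 h. Between 1 h and 3 h CCN2 fell by 0.31 (adjusted p 0.00406, from 5.31e-05 to 0.0826), though not without the 1 h replicate 1 (0.0826), while ANKRD1 rose. All changes of CCN1 and CCN2 against 0 h were called at every time and under every alternative. Whether these genes differ in their time course was not tested.

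**Figure D2:**
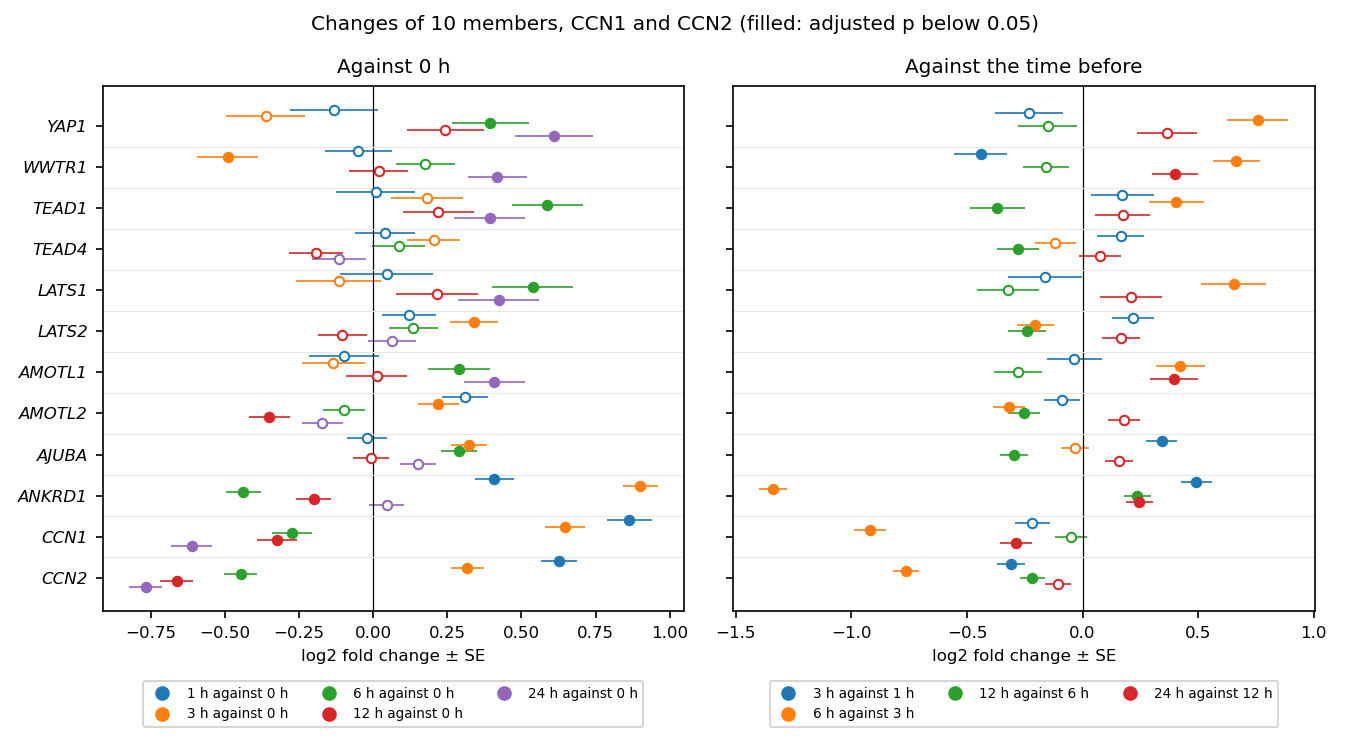
Log2 fold changes of the 10 members, CCN1 and CCN2 against 0 h (left) and against the time before (right), with bars of 1 SE. Colours mark the times compared, and filled points have an adjusted p below 0.05. From 3 h to 6 h YAP1 (0.76), WWTR1 (0.67) and LATS1 (0.65) were higher and ANKRD1 (-1.34), CCN1 (-0.92) and CCN2 (-0.76) lower.

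The sequence before the start of these genes is shown for ANKRD1, CCN2 and YAP1, because TEAD proteins bind a short core that the windows of these genes hold. Reference windows of 250 bases before each transcription start came from RefSeq on GRCh38.p14, with 12 windows for 8 of the members. They were searched on both strands for the TEAD core GGAATG. The AP-1 motif, which JUN and FOS factors bind, was searched as TGANTCA on both strands. The motifs can share bases at their ends, and neither contains the other. Stretches that GENCODE 29 annotates as transcribed were left out of the print, which takes 189 bases from the ANKRD1 window and 1 from that of CCN2. Capitals mark the TEAD core, and sequences run 5′ to 3′ on the strand of the gene.
ANKRD1, chr10:90921277-90921337, minus strand: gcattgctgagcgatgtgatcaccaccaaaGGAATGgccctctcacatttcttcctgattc
CCN2, chr6:131951374-131951622, minus strand: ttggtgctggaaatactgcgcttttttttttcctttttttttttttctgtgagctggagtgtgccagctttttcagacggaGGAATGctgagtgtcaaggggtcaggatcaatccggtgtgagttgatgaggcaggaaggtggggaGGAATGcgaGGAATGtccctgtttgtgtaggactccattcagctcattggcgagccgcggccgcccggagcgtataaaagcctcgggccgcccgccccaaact
YAP1, chr11:102110197-102110446, plus strand: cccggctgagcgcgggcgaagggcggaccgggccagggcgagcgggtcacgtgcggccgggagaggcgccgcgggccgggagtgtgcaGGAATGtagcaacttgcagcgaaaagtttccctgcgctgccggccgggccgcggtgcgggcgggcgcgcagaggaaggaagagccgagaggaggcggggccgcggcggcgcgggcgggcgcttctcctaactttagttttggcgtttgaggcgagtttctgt

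The core was found 220 and 128 bases before the RefSeq start of ANKRD1, the second within the stretch not printed. In CCN2 it was found 169, 104 and 95 bases before the start, and in YAP1 162 bases before it. AMOTL2 and AJUBA each had 1 core in 1 of their windows, 69 and 59 bases before the start. That makes 4 of 12 member windows, and over all 35097 RefSeq windows of this length 11.9% held the core. The AP-1 motif was found in ANKRD1 (195 bases before the start) and in LATS1 (245 bases), and in 6.57% of all windows. A match describes these letters and is no evidence of binding. Of the genes with a core, ANKRD1 (-1.34), CCN2 (-0.76) and AMOTL2 (-0.32) were lower from 3 h to 6 h and YAP1 (0.76) was higher. AJUBA (-0.03, adjusted p 0.693) was not called at that step.

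Counted over the members, ANKRD1 alone was called at 1 h, as higher, where 0.260% of all genes tested were called higher and 0.0521% lower (0.312% in either direction). The groups did not overlap for 2 of 10 members, beside 19.1% of all genes. At 3 h 4 members were higher (ANKRD1, LATS2, AJUBA and AMOTL2) and WWTR1 was lower, beside 9.04% of all genes higher and 8.71% lower (17.7% in all). Here 6 members did not overlap with 0 h, beside 33.9% of all genes. At 6 h 5 were higher (YAP1, TEAD1, LATS1, AMOTL1 and AJUBA) and ANKRD1 was lower, beside 16.9% and 13.2% of all genes (30.1% in all), and 6 did not overlap, beside 44.1%.

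At 12 h AMOTL2 and ANKRD1 were lower and 0 members higher, beside 6.48% of all genes lower and 5.96% higher (12.4% in all). There 6 members did not overlap with 0 h, beside 32.6% of all genes. At 24 h YAP1, WWTR1, TEAD1, LATS1 and AMOTL1 were higher and 0 lower, beside 18.0% of all genes higher and 17.1% lower (35.1% in all), and 7 did not overlap, beside 45.8%. The median log2 difference of the 10 members was 0.02 at 1 h, where that of all genes was -0.00. It was 0.19 at 3 h (all genes -0.00), 0.23 at 6 h (-0.02), 0.00 at 12 h (-0.00) and 0.27 at 24 h (-0.00). The split at 3 h was 4 higher and 2 lower with upper-quartile scaling. At 24 h it was 5 and 1 with upper-quartile scaling and 3 and 1 with the length and GC correction, and the count was 3 on leaving out the 0 h replicate 1 or the 24 h replicate 2 or 3.

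Between consecutive times the step from 3 h to 6 h held the most member calls, 5 higher and 3 lower, beside 22.9% of all genes higher and 20.3% lower (43.2% in all). Here 7 members did not overlap, beside 52.3% of all genes. From 1 h to 3 h ANKRD1 and AJUBA were higher and WWTR1 was lower, beside 3.17% and 2.56% of all genes (5.73% in all), and 4 did not overlap, beside 33.6%. From 6 h to 12 h ANKRD1 was higher and 5 members were lower, beside 8.70% and 11.9% of all genes (20.6% in all), and 7 did not overlap, beside 37.6%. From 12 h to 24 h WWTR1, AMOTL1 and ANKRD1 were higher and 0 lower, beside 6.42% and 5.60% of all genes (12.0% in all), and 7 did not overlap, beside 30.0%. The step from 6 h to 12 h gave 1 higher and 1 lower with upper-quartile scaling, with library size alone and on leaving out the 6 h replicate 2 or 3 or the 12 h replicate 1, and 0 higher and 7 lower with the length and GC correction. On leaving out the 12 h replicate 3 the split was 1 and 2.

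The step from 12 h to 24 h gave 0 calls on leaving out the 12 h replicate 1, while leaving out a 24 h library gave 6 (replicate 1) or 1 (replicate 2 or 3). Over all times together all 10 members changed (edgeR quasi-likelihood F-test), beside 64.2% of all genes, and 9 did with library size alone or with the length and GC correction. In the exact two-sided permutation test of single genes at 3 h against 0 h, YAP1, WWTR1, LATS2, AMOTL2, ANKRD1 and AJUBA had p = 0.1, the smallest value that 3 against 3 allows.

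Across the 17 libraries, log2 CPM of the members fell into sets that went up and down together. The correlation was highest between YAP1 and WWTR1 (Pearson r 0.934), followed by YAP1 with AMOTL1 (0.925) and with LATS1 (0.903). Among members it was lowest between YAP1 and ANKRD1 (-0.724), and 28 of 45 pairs were positive. With the targets beside them, YAP1 had lower values still, -0.880 with CCN1 and -0.800 with CCN2. LATS2 went with AJUBA (0.790), TEAD4 (0.734) and AMOTL2 (0.732). AMOTL2 was closest to CCN2 (0.895) and CCN1 (0.821), which were close to each other (0.958). These correlations describe libraries that share times and library properties, such as the slope on transcript length.

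The 5 members that rose at 24 h have long transcripts. Library slopes on length were higher at 6 h and 24 h than at 0 h and 3 h. The means of YAP1, WWTR1 and AMOTL1 put the times in the same order as the mean slopes, while TEAD1 and LATS1 were highest at 6 h. The longest annotated transcripts of YAP1, WWTR1, TEAD1, LATS1 and AMOTL1 have 5398, 5030, 8477, 7517 and 8970 bases, while ANKRD1 has 1979 and TEAD4 1690 bases. In the same order the GC content of these transcripts was 43.5, 40.9, 41.3, 39.7 and 48.8%, then 43.3% for ANKRD1 and 60.4% for TEAD4. LATS2, with 5511 bases and 51.8% GC, had no rise at 6 h or 24 h that passed the test. The part of length apart from GC content was not tested. Replicate 1 had a slope of 0.011 at 6 h, where replicates 2 and 3 had 0.095 and 0.092. At 24 h its slope was 0.022, where they had 0.134 and 0.124. Every member but ANKRD1 was lowest in replicate 1 at both times, and ANKRD1 was highest there. Offsets were then used to remove each library's trend with length and GC content. With them the rise from 3 h to 6 h was 0.61 for YAP1 (adjusted p 0.000482), 0.51 for WWTR1 (8.27e-06), 0.41 for LATS1 (0.00174) and 0.25 for AMOTL1 (0.0043). All of these stayed past the threshold. For TEAD1 it was 0.17 (adjusted p 0.0416). The correction also made TEAD1 higher at 3 h than at 0 h (0.24, adjusted p 0.00974), where it was 0.18 (0.322) without it. At 24 h against 0 h, YAP1 (0.46, adjusted p 0.0041), WWTR1 (0.28, 0.00219) and AMOTL1 (0.22, 0.0123) remained called, and AMOTL2 (-0.18, 0.0283) was added. ANKRD1 stood at 0.86 at 3 h against 0 h (adjusted p 6e-13) and -1.21 from 3 h to 6 h (4.96e-15). The part of mitochondrial share or other library properties in these results was not tested, and neither was that of a change in the number of cells, since less RNA per cell and fewer cells of a kind cannot be told apart in bulk samples.

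**Figure D3:**
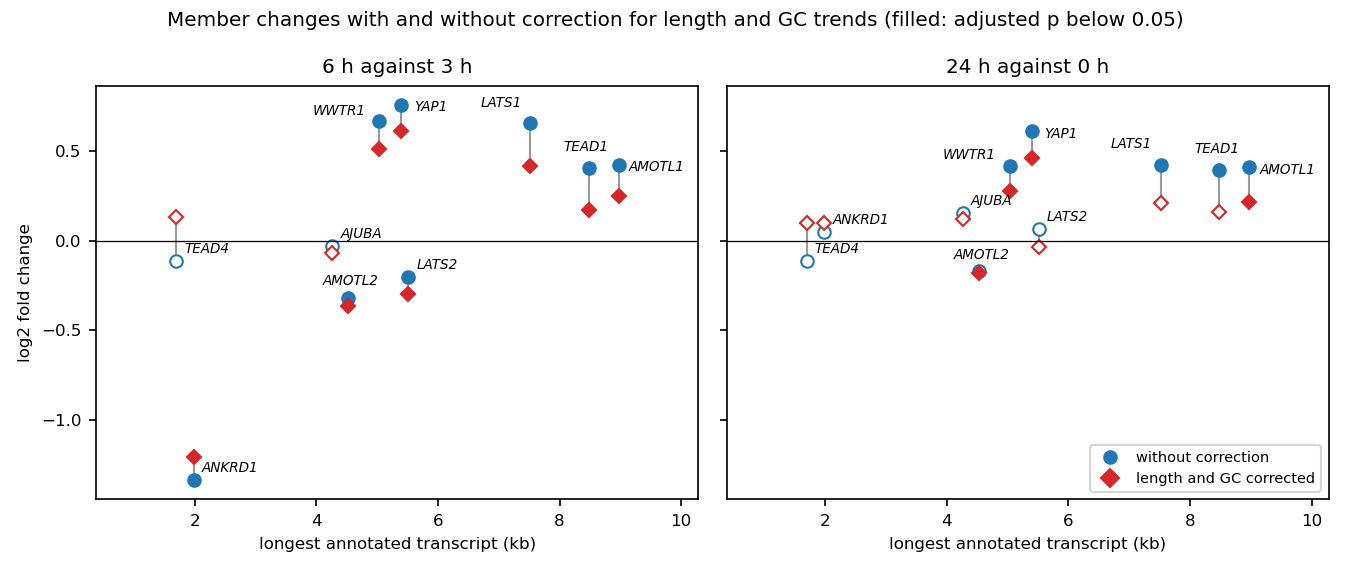
Log2 fold change of each member against the length of its longest annotated transcript (kb), from 3 h to 6 h (left) and from 0 h to 24 h (right). Circles are without and diamonds with correction for trends with length and GC content, and filled symbols have an adjusted p below 0.05. Diamonds lie nearer 0 than circles for the 5 members of 5030 bases or more that rose, and YAP1, WWTR1 and AMOTL1 stay filled in both panels.

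**Figure D4:**
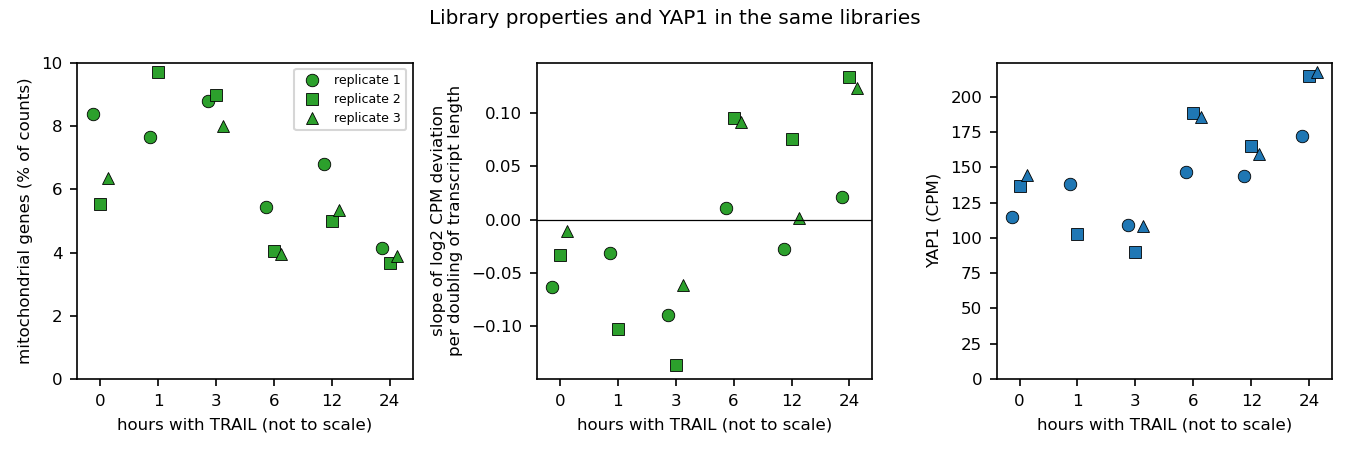
Share of counts from mitochondrial genes (%), slope of log2 CPM on log2 transcript length against the average library, and YAP1 (CPM), for each library against hours with TRAIL (not to scale). At 24 h the mean mitochondrial share was 3.90%, against 6.75% at 0 h, and the slope ran from -0.136 (3 h, replicate 2) to 0.134 (24 h, replicate 2), the libraries with the lowest and nearly the highest YAP1.

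The remaining genes of the pathway were taken from 3 lists. The list of Hippo kinases and upstream regulators had 34 genes, of which 32 were tested. At 1 h 0 of 32 were called (2 with an unadjusted p below 0.05, and 0 called by DESeq2 or limma-voom). At 3 h 8 were higher and 2 lower, beside 9.04% and 8.71% of all genes tested, and at 6 h 20 were higher and 0 lower, beside 16.9% and 13.2%. At 12 h 5 were higher and 0 lower, beside 5.96% and 6.48% of all genes, and at 24 h 17 were higher and 2 lower, beside 18.0% and 17.1%. The median log2 difference was 0.24 at 6 h and 0.23 at 24 h, beside -0.02 and -0.00 for all genes tested. The highest at 6 h were WWC2 (0.81), WWC1 (0.80), which encode KIBRA-type scaffolds that promote LATS activity, and FRMD6 (0.77). At 3 h NF2, which encodes the LATS activator merlin, was higher by 0.56 (adjusted p 0.0037), and at 24 h it was lower by 0.48 on the log2 scale. FAT4, a giant cadherin placed upstream of Hippo signalling, was highest at 24 h (0.85, adjusted p 0.00075).

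These counts moved with single libraries. The 3 h count of 10 was 6 without the 0 h replicate 3. The 6 h count of 20 was 13 with upper-quartile scaling, 10 with replicates 2 and 3 averaged and 11 without the 6 h replicate 3. The 24 h count of 19 was 10 with replicates averaged or on leaving out the 0 h replicate 1, and 11 on leaving out the 24 h replicate 2 or 3. The 12 h count of 5 ran from 1 to 7 over the alternatives, and was at most 3 when any single library was left out. On leaving out the 12 h replicate 3 its split was 1 higher and 2 lower. With the length and GC correction 18 were higher at 6 h, and at 24 h the split was 11 to 2. From 3 h to 6 h 16 were higher and 3 lower (11 and 4 with that correction), beside 22.9% and 20.3% of all genes tested. From 6 h to 12 h, beside 8.70% of all genes higher and 11.9% lower, 0 were higher and 13 lower, led by FRMD6 (-0.88) and WWC1 (-0.76). The last count was 7 on leaving out the 6 h replicate 2 and 8 on leaving out replicate 3.

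The target signature held 19 genes that are not members and were all tested. They come from a published list of YAP and TAZ targets in tumours whose remaining genes are members. It includes CCN1, CCN2 and AXL, which is also among the mesenchymal markers above. At 1 h 5 were higher and 0 lower, beside 0.260% and 0.0521% of all genes tested, and at 3 h 6 were higher and 1 lower, beside 9.04% and 8.71%. At 6 h 9 were higher and 5 lower, beside 16.9% and 13.2% of all genes. At 12 h 0 were higher and 5 lower, beside 5.96% and 6.48%, and at 24 h 6 higher and 7 lower, beside 18.0% and 17.1%. The median log2 difference of its genes was 0.14 at both 3 h and 6 h and -0.10 at 12 h. NUAK2, a kinase of the AMPK family, had the largest rise, from 4.73 ± 0.649 CPM at 0 h (SD, n = 3) to 19.0 ± 2.97 CPM at 3 h (n = 3), a log2 difference of 2.00 (adjusted p 5.3e-09). GADD45A, a stress-response gene, was higher by 0.78 at 3 h and lower by 0.81 on the log2 scale at 24 h. IGFBP3, which encodes a secreted binding protein of insulin-like growth factors, was among the lowest at 24 h (-0.93, adjusted p 2.8e-09). PTPN14, which is in both lists, was higher at 6 h (0.67) and 24 h (0.65), with NUAK2 (0.70 and 0.72). With the length and GC correction the 12 h split was 1 higher and 9 lower. From 3 h to 6 h 9 were higher and 8 lower, beside 22.9% and 20.3% of all genes tested. The 8 included NUAK2 (-1.30), CCN1 and CCN2.

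Of the 6 other TEAD and VGLL genes, co-factors and relatives of TEAD1 and TEAD4, 4 were tested. At 6 h VGLL3 was higher (0.61, adjusted p 0.029), and at 12 h TEAD2 was lower (-0.33, adjusted p 0.018), with 0 called at 1, 3 and 24 h. At an unadjusted p below 0.05 there were 1, 1 and 0 genes at those times, and DESeq2 and limma-voom also called 0. At 3 h 1 was called lower with library size alone or with the length and GC correction. At 24 h 1 was called higher with that correction or without the 24 h replicate 1. The VGLL3 call was lost with replicates 2 and 3 averaged and on leaving out any 0 h replicate or the 6 h replicate 2 or 3, and the TEAD2 call on leaving out replicate 2 of 0 h or of 12 h.

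**Figure D5:**
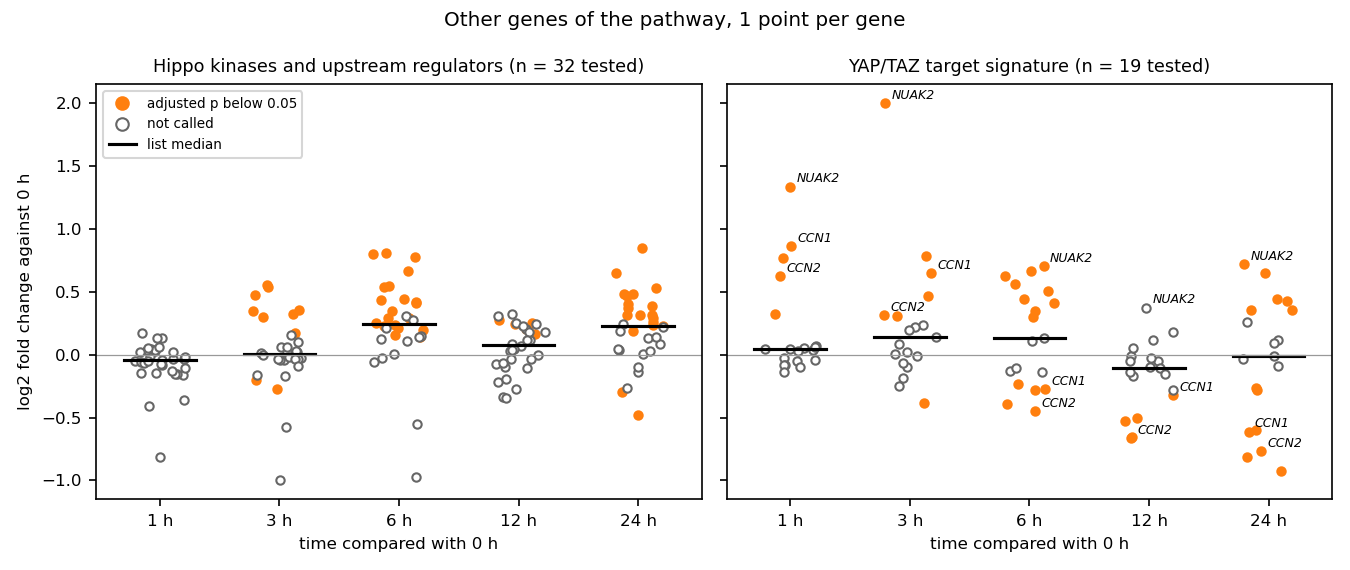
Log2 fold change against 0 h of each tested gene of the Hippo list (left, 32 genes) and of the target signature (right, 19 genes), with bars at the medians and filled points where the adjusted p is below 0.05. In the Hippo list 20 genes are filled at 6 h, all above 0. In the signature NUAK2 reaches 2.00 at 3 h and CCN2 lies at -0.77 at 24 h.

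The genes whose pattern was most like that of ANKRD1 were sought among 11370 tested genes of at least moderate level, by the correlation of log2 CPM over the 17 libraries. They were PLK2 (r 0.954), AC012321.1 (0.909), NABP1 (0.899), C9orf3 (0.897) and XPA (0.894). PLK2, which encodes a polo-like kinase, had a narrower range than ANKRD1, with a mean of 373 CPM at 0 h, a high of 426 CPM at 3 h and a low of 328 CPM at 6 h. NABP1 stood at 79.5, 102 and 68.7 CPM at those times. The correlation was found by searching these libraries and is given as a description.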

How the data were processed

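The authors deposited one table of expected counts, estimated numbers of fragments per gene, made with RSEM per the file name. Per the submitters' processing notes, cutadapt 1.18, STAR 2.7.0f and hg38 were used. The RSEM version, annotation release and strand setting are not given in the sources used here, and 10.8% of deposited values were not whole.

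Expected counts were rounded and filtered (filterByExpr), libraries were scaled by TMM (factors 0.939 to 1.06), and all 17 libraries entered one quasi-likelihood fit, with time as a factor, in edgeR 4.0.16 (R 4.3.3, robust). Each later time was compared with 0 h and with the time before. Adjustment was over 15365 genes, with calls below 0.05. Standard errors come from the coefficient and the F statistic. CPM use the scaled library size. Positions and lengths come from GENCODE 29, which held 58597 of 58870 identifiers. Alternatives included DESeq2 1.42.0 and limma-voom (limma 3.58.1).

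The members, the lists and the rule for naming genes (all members, up to 3 highest and lowest called genes of each list, CCN1 and CCN2, and the 5 genes most like ANKRD1) were chosen with earlier results of these data known.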

Additional observations from a re-analysis of the deposited data

How the results depend on the processing

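Of 39 member calls over 9 comparisons, 20 were made under every alternative, and 0 changed direction. The count of members called at 1 h was 2 with no filter, with the length and GC correction, and with the replicate block and that correction, against 1. At 12 h it was 1 with library size alone, against 2, and 1 to 2 with 1 library left out. At 24 h it was 3 with replicates 2 and 3 averaged, against 5, and 3 to 6 with 1 library left out. From 1 h to 3 h it was 1 with only the times compared, against 3. From 6 h to 12 h it was 2 with upper-quartile scaling, library size alone or averaged replicates, against 6, and 2 to 8 with 1 library left out. Averaging gave 1 from 12 h to 24 h, against 3, and leaving out a library gave 0 (the 12 h replicate 1) to 6 (the 24 h replicate 1). The difference of ANKRD1 at 24 h, called under no alternative, was -0.00056 without the 0 h replicate 2. With 1 library left out it reached at most 0.089, and over all alternatives 0.12. That of CCN1 from 6 h to 12 h was -0.05, 0.023 with upper-quartile scaling, and from -0.081 to 0.012 with 1 library left out. With the length and GC correction it was -0.13 and past the threshold (adjusted p 0.0437). The cause was not tested. With the replicate number as a block, 7 members were called from 6 h to 12 h and 7 from 3 h to 6 h, and the other counts were as without it. LATS2 from 3 h to 6 h was no longer called with it (adjusted p 0.0557), and AMOTL1 from 6 h to 12 h was (0.0445). Same-numbered libraries had correlated deviations over 0.1 in 8 of 40 pairs (-0.199 to 0.211). Of the 17 libraries, 10 had a higher mean correlation with their own number than with the other numbers. The numbers were not taken as pairs. Deviations were from the mean of each time, which ties the libraries of a time together, so this measure cannot settle whether they are pairs. Of the list counts, 528 stayed within 1.5 times and 96 did not. From 1 h to 3 h 3.17% of all genes tested were higher and 2.56% lower, and from 12 h to 24 h 6.42% and 5.60%. In the target signature, the split from 1 h to 3 h was 2 higher and 1 lower, 2 and 2 with library size alone and 3 and 3 with no filter or with the length and GC correction, and the count of 3 was 0 with only the times compared and 1 without the 1 h replicate 1. From 12 h to 24 h it was 5 and 3, against 4 and 4 with upper-quartile scaling, and the count was 2, 5, 1 and 3 without the 12 h replicate 1 or 3 or the 24 h replicate 2 or 3. In the Hippo list the split from 12 h to 24 h was 3 and 1, against 1 and 1 with upper-quartile scaling, 3 and 0 with library size alone and 5 and 0 with the length and GC correction, and leaving out a library gave 11 (the 24 h replicate 1) or 1 (the 12 h replicate 1 or the 24 h replicate 2 or 3) or 2 (the 12 h replicate 3). From 1 h to 3 h it was 5 and 0, against 4 and 1 with upper-quartile scaling and 9 and 1 with the length and GC correction. The count of 5 was 2 with only the times compared, 3 with library size alone, and 1, 2, 1 and 3 on leaving out the 1 h replicate 1 or 2 or the 3 h replicate 1 or 2. LATS1 and TEAD4, with 190 to 552 and 220 to 337 counts per library, were the members with the fewest counts.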
